A study of Mus musculus with 12 samples.

Results

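The keratins are the intermediate filament proteins of epithelial cells. Every gene whose annotated symbol starts with Krt followed by a digit was taken as a member, which gave 46 genes among the 16675 symbols of the array, read by 54 of its 29922 probes. A gene with more than 1 probe was read by the probe with the highest mean log2 intensity over the 12 arrays, and its other probes served as a check. The 46 genes comprise 6 keratins of simple epithelia, 15 of squamous epithelia (3 of the basal layer, 9 of the upper layers, 3 of wounds and rapid growth), 20 of hair and hair sheath, and 5 others.

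RNA came from the stomach and the brain of male FVB mice, 6 to 8 weeks old, that were heterozygous for a luciferase transgene driven by tandem PPAR response elements upstream of a tk promoter. Mice of the chitosan groups had received 0.2 g/kg chitosan (the deacetylated polymer of chitin) under the skin, mice of the mock groups saline, and organs were taken on day 3. The 4 groups were therefore chitosan stomach, mock stomach, chitosan brain and mock brain, with 3 mice and 3 single-colour arrays each, and all mice carried the transgene. The study asked which genes differ after chitosan in the organs where the reporter responded. The sources used here do not say which region of the stomach was sampled or whether the brain and the stomach came from the same mice.

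A keratin filament is built from pairs of 1 type I (acidic) and 1 type II (basic) keratin, and the pair in use changes with the kind of epithelium and with the state of the cell. Krt8 and Krt18 pair in simple epithelia, Krt5 and Krt14 in the basal layer of squamous epithelia, Krt4 and Krt13 in the upper layers of internal squamous epithelia, Krt1 and Krt10 in the upper layers of epidermis, and Krt6a with Krt16 or Krt17 after wounding. The mouse stomach holds both kinds of lining, since the forestomach is covered by a keratinised squamous epithelium and the glandular stomach by a simple columnar epithelium that folds into gastric glands.

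The genes lie in clusters, 26 of the 46 on mouse chromosome 11 and 20 on chromosome 15. RefSeq promoter windows (GRCm38.p6, 250 bases before to 50 bases after the transcript start) were at hand for 33 of the 46 genes, in 34 windows. The 100 bases before the transcript start are shown for 6 stomach keratins, picked after their values were seen, because Krt13, Krt5, Krt23 and Krt78 carry the same letters at nearly the same place while Krt10 has another form and Krt14 neither. Capitals mark TATA box letters, which are ATAAAA except in Krt10, where they are TATAAA. Either form was searched on the strand of the transcript only, with its first letter 40 to 20 bases before the transcript start, and the forms can overlap. All 6 sequences run on the minus strand. Krt13 has a second window, with another transcript start, that holds neither form at that place and is not shown.
Krt13, chr11:100121567-100121666: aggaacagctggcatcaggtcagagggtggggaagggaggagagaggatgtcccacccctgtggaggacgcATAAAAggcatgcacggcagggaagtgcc
Krt5, chr15:101712906-101713005: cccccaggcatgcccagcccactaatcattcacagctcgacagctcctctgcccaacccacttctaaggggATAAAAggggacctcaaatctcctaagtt
Krt78, chr15:101954288-101954387: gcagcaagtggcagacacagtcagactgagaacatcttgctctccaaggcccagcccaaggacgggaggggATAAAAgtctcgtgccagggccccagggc
Krt23, chr11:99493121-99493220: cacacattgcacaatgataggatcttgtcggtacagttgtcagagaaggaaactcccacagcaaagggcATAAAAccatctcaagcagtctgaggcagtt
Krt10, chr11:99389365-99389464: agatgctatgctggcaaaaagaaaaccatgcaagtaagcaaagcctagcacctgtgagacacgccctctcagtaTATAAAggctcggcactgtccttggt
Krt14, chr11:100206031-100206130: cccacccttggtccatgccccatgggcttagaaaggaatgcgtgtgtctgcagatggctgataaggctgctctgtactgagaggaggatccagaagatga

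These letters stood at that place in 19 of the 34 keratin windows (55.9%), against 2.87% of all 32851 windows. The 19 genes were 8 of the 10 keratins above background that have a window and 11 of the 23 others that have one, so the letters occurred in keratins with and without signal in these organs. On either strand and at any place of the window, GC box letters (GGGCGG) were in 5.88% of keratin windows and 35.7% of all windows, and AP-1 letters (TGANTCA) were in 5.88% and 7.81%. The letters of a complete PPAR element (the direct repeat named DR1) were in none of the 34 keratin windows and in 0.0396% of all windows, and a single repeat unit of it (AGGTCA) was in 10 of the 34 (29.4%) and in 16.3% of all windows. A match describes the letters only, and no match says only that they are not in this window.

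Intensities were on 1 scale for all arrays, with medians of 47 to 47.83 and the same highest value of 28367.2 on every array. A keratin was counted as above background when the mean of at least 1 group exceeded 68.67, which is 2 times the lowest intensity (34.33). By this limit 14 keratins were above background, 9 of the 15 squamous keratins (Krt1, Krt4, Krt5, Krt10, Krt13, Krt14, Krt17, Krt24, Krt78), 2 of the 6 simple keratins (Krt19, Krt23), 2 of the 20 hair keratins (Krt25, Krt82) and Krt12, the keratin of the cornea. The other 32 were not above background in any group, among them Krt8 and Krt18, the usual pair of the glandular stomach. The probe of Krt8 gave 44.0 to 46.6 in chitosan stomachs and 45.0 to 54.1 in mock stomachs, and that of Krt18 gave 46.4 to 53.5 in chitosan stomachs and 50.6 to 61.6 in mock stomachs, so these probes carried little information on the simple epithelium.

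The organs matched their labels. Brain markers summed to 550.2 to 598.1 in stomachs and to 5808.0 to 8319.5 in brains, and forestomach squamous markers summed to 16921.3 to 31861.4 in stomachs and to 871.1 to 903.6 in brains. Correlations within groups were 0.796 to 0.951 over all probes.

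Keratins separated the stomach from the brain. In chitosan mice 7 of the 46 keratins passed an adjusted p of 0.05 (limma), all of them higher in the stomach, against 0.939% of all probes that were higher by the same rule. In mock mice 12 did, also all higher, against 3.54% of all probes. Squamous keratins made up most of both counts, with 6 of 15 called in chitosan mice and 9 of 15 in mock mice, while simple keratins gave 1 of 6 and 3 of 6 and hair keratins 0 of 20 in both. At 2-fold, 7 keratins were higher in the stomach of chitosan mice (1.78% of all probes) and 9 in the stomach of mock mice (2.08%). Krt24 was the 1 keratin 2-fold lower in the stomach, in chitosan mice, through a single brain array given with the brain values.

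Krt5 and Krt14, the pair of the basal layer, were both stomach keratins in these data. Krt14 read 4952.6, 4360.1 and 4542.1 in chitosan stomachs and 3297.2, 4101.8 and 4360.1 in mock stomachs, while all 6 brain arrays lay between 48.6 and 58.2. The brain values were under the background limit, so only a lower bound can be given, and Krt14 was at least 67.2-fold higher in the stomach than in the brain in chitosan mice (adjusted p = 0.0050, limma) and at least 56.7-fold in mock mice (adjusted p = 0.00018). Here and below, an adjusted p beside a bound comes from the fit on the measured intensities, and the bound itself was not tested. Krt5 read 199.5, 195.0 and 149.0 in chitosan stomachs and 132.7, 134.8 and 138.1 in mock stomachs, with 48.6 to 53.2 in brains, which is at least 2.62-fold above the brain in chitosan mice (adjusted p = 0.0077) and at least 1.97-fold in mock mice (adjusted p = 0.00042). The stomach and the brain did not overlap for either gene. Krt15, a type I keratin of basal cells that pairs with Krt5, was called only in mock mice (adjusted p = 0.0029, limma), but its group means were under the limit in both organs, so no fold is given.

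Krt4 and Krt13, the pair of the upper layers of internal squamous epithelia, showed the same organ pattern. Krt13 read 13240.4, 13240.4 and 11241.5 in chitosan stomachs and 8985.0 on each mock stomach array, and all 6 brain arrays lay between 46.4 and 53.5. Its lower bound was 183-fold in chitosan mice (adjusted p = 0.0010, limma) and 131-fold in mock mice (adjusted p = 3.0e-05). Krt4 read 2068.9, 1782.4 and 640.7 in chitosan stomachs and 751.5, 1324.8 and 776.8 in mock stomachs, with 37.6 to 40.4 in brains. It was at least 19.4-fold higher in the stomach in chitosan mice (adjusted p = 0.0092) and at least 13.4-fold in mock mice (adjusted p = 0.00023). The methods' t-test did not call Krt4 in chitosan mice (adjusted p = 0.0506).

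Krt10, the type I keratin of differentiating epidermis, was high in every stomach and was the only stomach keratin with brain values above the limit. It read 4542.1, 4952.6 and 9823.9 in chitosan stomachs, 11241.5 on each mock stomach array, 83.3, 70.2 and 137.5 in chitosan brains, and 56.2, 48.8 and 69.6 in mock brains. The log2 difference between stomach and brain was 6.02 (SE 0.48, adjusted p = 0.0059, limma) in chitosan mice, where all 3 brain values were over the limit, and the stomach was at least 163-fold above the brain in mock mice (adjusted p = 3.0e-05), where 1 of 3 was. Krt1, its type II partner in epidermis, read 103.6, 66.5 and 57.7 in chitosan stomachs and 61.2, 84.1 and 74.2 in mock stomachs, against 43.2 to 48.6 in brains, and it was called only in mock mice (at least 1.06-fold, adjusted p = 0.022), where it loses the call when any mock brain array or mock stomach array 3 is left out (adjusted p up to 0.0963). Krt78, a type II keratin, read 343.8, 269.2 and 136.7 in chitosan stomachs and 113.7, 150.5 and 84.6 in mock stomachs, with 39.9 to 43.0 in brains, and was called in chitosan mice (at least 3.39-fold, adjusted p = 0.016) and in mock mice (at least 1.65-fold, adjusted p = 0.0034). Its second probe was called in neither (limma, adjusted p = 0.131 in chitosan mice and 0.106 in mock mice). By the methods' t-test the first probe was called in neither (adjusted p = 0.131 and 0.0718).

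The simple keratins Krt19 and Krt23 and the wound keratin Krt17 were the other stomach keratins above background. Krt23, an acidic keratin, read 677.5, 540.6 and 544.9 in chitosan stomachs and 333.1, 347.7 and 324.8 in mock stomachs, against 42.9 to 46.6 in brains, and was called in chitosan mice (at least 8.51-fold, adjusted p = 0.0070, limma) and in mock mice (at least 4.88-fold, adjusted p = 0.00023). Krt19, a type I keratin of simple and ductal epithelia, read 100.2, 109.2 and 52.8 in chitosan stomachs and 126.9, 240.6 and 157.8 in mock stomachs, with 46.4 to 48.9 in brains. It was called in mock mice (at least 2.46-fold, adjusted p = 0.0030) and not in chitosan mice (adjusted p = 0.299).

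Krt17 behaved like Krt19 in this comparison. It read 82.7, 88.9 and 52.8 in chitosan stomachs and 148.7, 104.1 and 171.3 in mock stomachs, with 48.9 to 58.2 in brains, and was called in mock mice (at least 2.02-fold, adjusted p = 0.0053, limma) and not in chitosan mice (adjusted p = 0.333). Krt7, a type II keratin of simple and ductal epithelia, was likewise called only in mock mice (adjusted p = 4.2e-04) with group means under the limit in both organs. On chitosan stomach array 3, Krt19 and Krt17 both read 52.8, near their brain values, and without that array both were called in chitosan mice too (adjusted p = 0.0029 for Krt19 and 0.0067 for Krt17). The methods' t-test called neither Krt19 nor Krt17 in mock mice (adjusted p = 0.0586 and 0.0721). The whole count in chitosan mice moved with single arrays, to 11 keratins without chitosan stomach array 3, to 3 without chitosan brain array 1 or 2, and to 0 without chitosan stomach array 2 (smallest adjusted p = 0.0571).

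**Figure D1:**
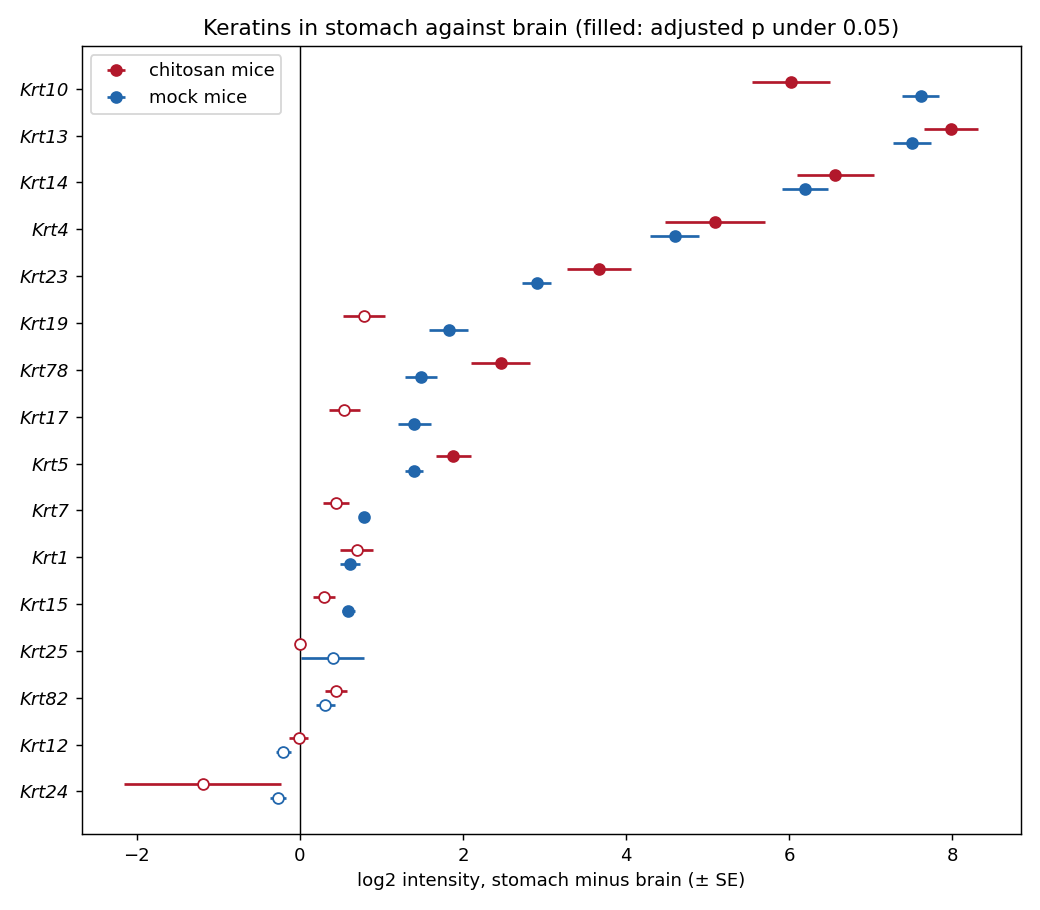
The log2 intensity of stomach minus brain is plotted for 16 keratins (points, with SE), in chitosan mice (red) and mock mice (blue), and filled points passed an adjusted p of 0.05. Krt10, Krt13, Krt14, Krt4, Krt23, Krt78 and Krt5 are filled in both treatments and Krt19 and Krt17 only in mock mice, and since nearly all brain values are under the background limit, the points show measured intensities and not the size of the change in RNA.

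After chitosan, no keratin passed the adjusted p in the stomach. The count was 0 of 46 by limma (0% of all probes) and 0 of 46 by the methods' t-test, and 7 of 46 had an unadjusted p under 0.05, against 5.25% of all probes. With all 12 arrays in 1 model, 0 keratins passed, against 0.317% of all probes. With 3 arrays against 3, an exact permutation test of a single gene cannot go below p = 0.1. The groups did not overlap for 6 keratins that were higher with chitosan (6.86% of all probes) and 7 that were lower (5.37%). At 2-fold there was 1 higher, Krt78 (0.127% of all probes), and 1 lower, Krt19 (0.394%).

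As groups, the 46 keratins were not shifted, with 24 higher and 22 lower and a median log2 difference of 0.00, against 0.01 over all probes (16964 higher, 12958 lower). The simple keratins, of which 2 were above background, had 1 higher and 5 lower, with a median of -0.18. The squamous keratins had 8 higher and 7 lower, with a median of 0.02. The 9 squamous keratins above background had 7 higher and 2 lower, with a median of 0.24 (0.125 to 0.327 with 1 array left out), and none was called. Krt24, among the 7, was above background through 1 brain array only and read 47.1 to 52.8 in stomachs, under the limit. Krt10, among the 2 lower, was higher by its dimmer probe (log2 difference 1.14, SE 0.48). With 34 subtracted from each intensity the simple median was -0.61, and with 1 array left out it ran from -0.231 to -0.0964. All 3 wound keratins were lower, though Krt6a and Krt16 were under the background limit. Of the 20 hair keratins 12 were higher (median 0.05). In bulk RNA, fewer cells of a type and less RNA per cell cannot be told apart.

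**Figure D2:**
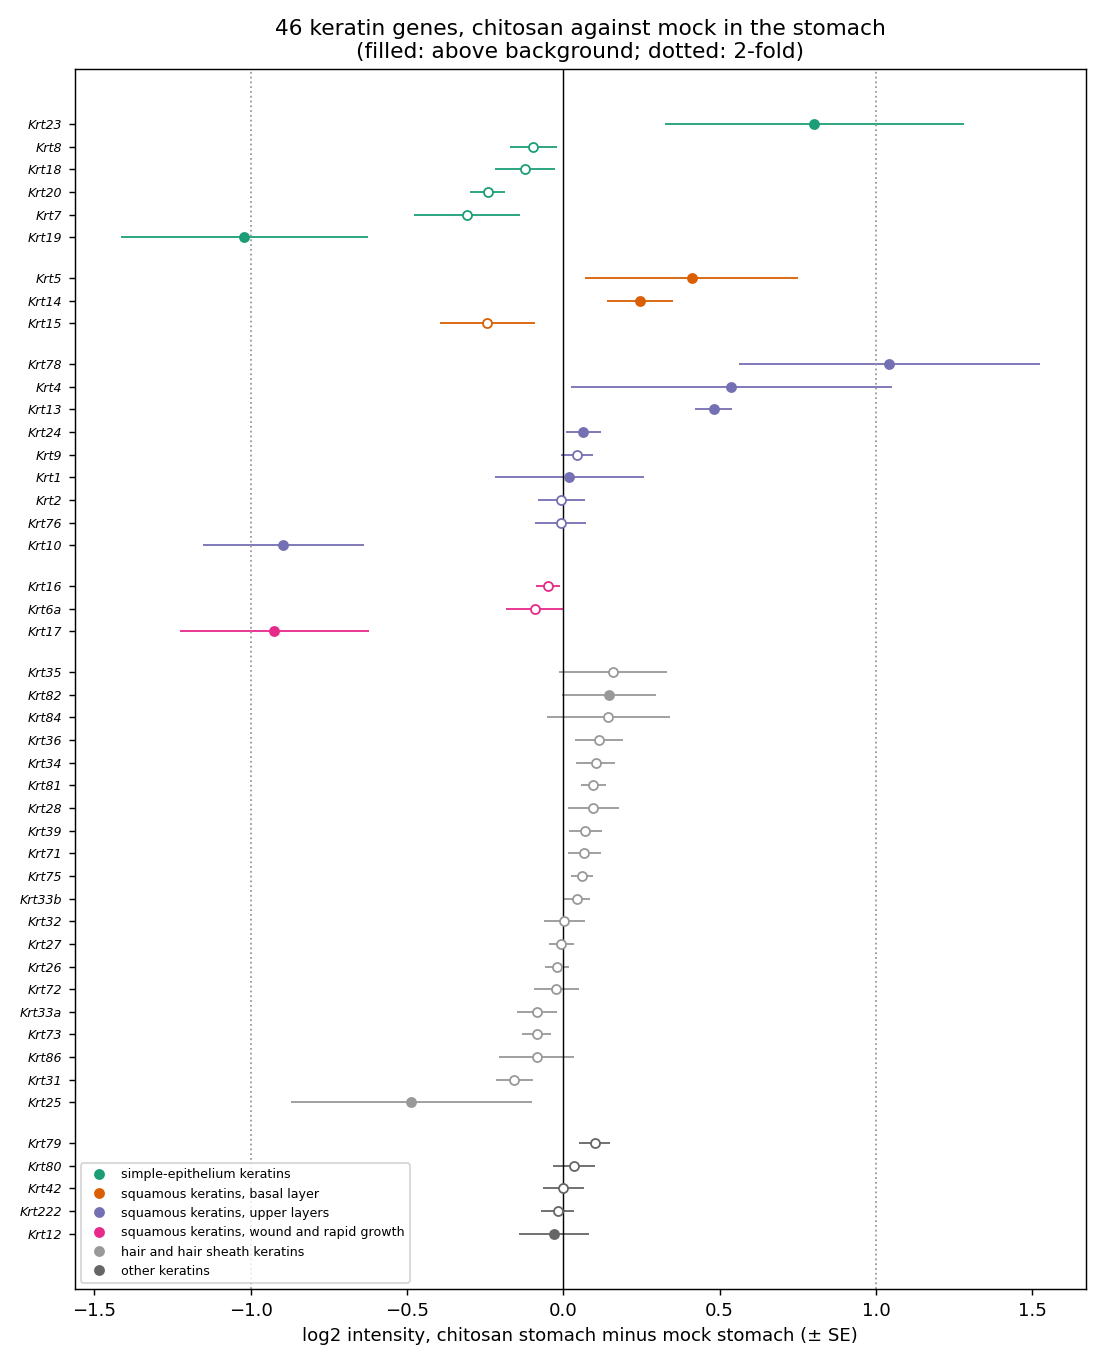
The log2 intensity of chitosan stomach minus mock stomach is plotted for each of the 46 keratins (points, with SE), grouped by class and ordered within it, with filled points above background and dotted lines at 2-fold. Krt78 at 1.04 and Krt19 at -1.02 lie just past the lines, and all hair keratins but Krt25 lie within 0.2 of 0.

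For the basal pair, chitosan stomachs stood above mock stomachs by 0.41 (SE 0.34) for Krt5 and 0.24 (SE 0.11) for Krt14 on the log2 scale, with adjusted p = 0.855 and 0.853 (limma). The 3 chitosan values of Krt5 were all above the 3 mock values, the closest being 149.0 and 138.1, whereas those of Krt14 overlapped, with a value of 4360.1 in both groups. Krt15 was at -0.24 (SE 0.15).

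Of the upper-layer keratins, Krt13 came nearest to a call. Its log2 difference was 0.48 (SE 0.06, unadjusted p = 5.3e-05, adjusted p = 0.0993, limma), and every chitosan array was above every mock array. The 3 mock values were identical because the arrays share nearly the same set of intensities and Krt13 held the eighth highest of them on each mock stomach array, against rank 5, 5 and 6 on the chitosan arrays. The difference of this probe is thus a step of a few ranks at the top of the scale, and the identical mock values make its fitted spread small. The part of the shared scale in this difference was not tested. The adjusted p of Krt13 ran from 3.3e-04, without chitosan stomach array 3, to 0.947, without chitosan stomach array 2, and was 0.754 with all 12 arrays in 1 model. Its second probe read 339.2, 227.9 and 136.7 in chitosan stomachs and 106.9, 247.8 and 121.2 in mock stomachs, and there the groups overlapped (log2 difference 0.57, SE 0.54).

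Krt4 and Krt78 were higher on 2 of the 3 chitosan arrays and not on the other. The log2 difference was 0.54 (SE 0.51, adjusted p = 0.860, limma) for Krt4 and 1.04 (SE 0.48, adjusted p = 0.853) for Krt78, and without chitosan stomach array 3 they were 1.07 (adjusted p = 0.682) and 1.43 (adjusted p = 0.530). On that array Krt4 was below all 3 mock values and Krt78 within their range. The second probe of Krt78 read 143.0, 128.4 and 66.2 in chitosan stomachs and 69.0, 90.2 and 64.1 in mock stomachs, the same pattern at a lower level (0.54, SE 0.32). Krt1 differed by 0.02 (SE 0.24) and Krt24, a type I keratin of differentiating keratinocytes, by 0.06 (SE 0.06), with 47.9 to 52.8 in chitosan stomachs and 47.1 to 48.2 in mock stomachs.

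Krt10 gave opposite answers through its 2 probes. By the brighter probe it was lower in all 3 chitosan stomachs (log2 difference -0.89, SE 0.26, unadjusted p = 0.0096, adjusted p = 0.773, limma), with the identical mock values again set by 1 rank, the sixth, on each mock array, against ranks 16, 14 and 7. By the dimmer probe it read 4233.0, 2932.6 and 1234.0 in chitosan stomachs and 861.9, 1690.8 and 982.4 in mock stomachs, with overlapping groups and a log2 difference of 1.14 (SE 0.48, adjusted p = 0.853). Both probes placed chitosan stomach array 3 nearest to the mock arrays. Without that array the brighter probe gave -1.25 and the gene was called (adjusted p = 3.3e-04). The dimmer probe too was above the brain, at least 36.2-fold in chitosan mice (adjusted p = 0.0079) and at least 16.4-fold in mock mice (adjusted p = 0.00028). Which stretch of the transcript each probe reads was not analysed here.

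**Figure D3:**
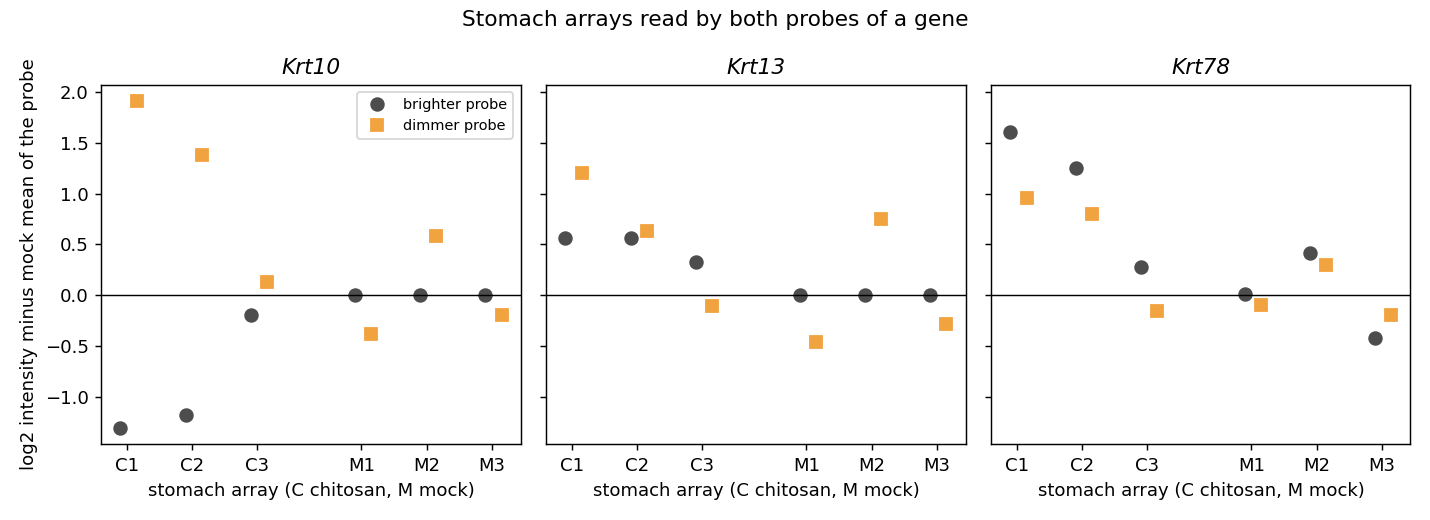
For the 3 stomach keratins above background with 2 bright probes, the log2 intensity on each stomach array (C chitosan, M mock) is given relative to that probe's mock mean, for the brighter probe (circles) and the dimmer one (squares). The probes of Krt78 keep the same order of the chitosan arrays, those of Krt13 part on several arrays, and for Krt10 the brighter probe lies below 0 and the dimmer above 0 on all 3 chitosan arrays.

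Krt17, Krt19 and Krt23 were the remaining keratins whose stomach groups did not overlap and that were above background. Krt19 was lower with chitosan by 1.02 on the log2 scale (log2 difference -1.02, SE 0.40, unadjusted p = 0.035, adjusted p = 0.853, limma) and Krt17 had a log2 difference of -0.92 (SE 0.30, unadjusted p = 0.017, adjusted p = 0.853). Without chitosan stomach array 3, which was the lowest for both, the log2 differences were -0.69 and -0.69. Krt23 went the other way, at 0.80 (SE 0.48, adjusted p = 0.853), and its values were higher on all 3 chitosan arrays whichever array was left out (0.70 to 0.86). The simple keratins thus did not share a direction, with Krt19 lower and Krt23 higher.

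Of the keratins under the background limit, Krt20, which marks the surface cells of gut and stomach epithelium, read 39.7, 38.7 and 40.4 in chitosan stomachs and 46.0, 50.6 and 44.1 in mock stomachs (log2 difference -0.24, SE 0.06, unadjusted p = 0.00325, adjusted p = 0.551, limma). These values do not overlap, but the mock values are themselves at the level of the brain arrays (40.4 to 44.0) or a few units above. Krt7 was at -0.31 (SE 0.17), Krt18 at -0.12 (SE 0.10) and Krt8 at -0.10 (SE 0.08). Krt6a, induced in wounded squamous epithelium, was at -0.09 (SE 0.09), and Krt16 at -0.05 (SE 0.04). A dimmer probe of Krt6a read 58.0, 42.8 and 44.0 in chitosan stomachs and 69.7, 57.2 and 65.1 in mock stomachs. These values overlapped (log2 difference -0.42, SE 0.13, unadjusted p = 0.016, adjusted p = 0.853, limma). That probe was called for stomach over brain in mock mice (adjusted p = 0.0045, limma), with group means under the limit in both organs. Another probe of Krt6a was at -0.10 (SE 0.07).

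**Figure D4:**
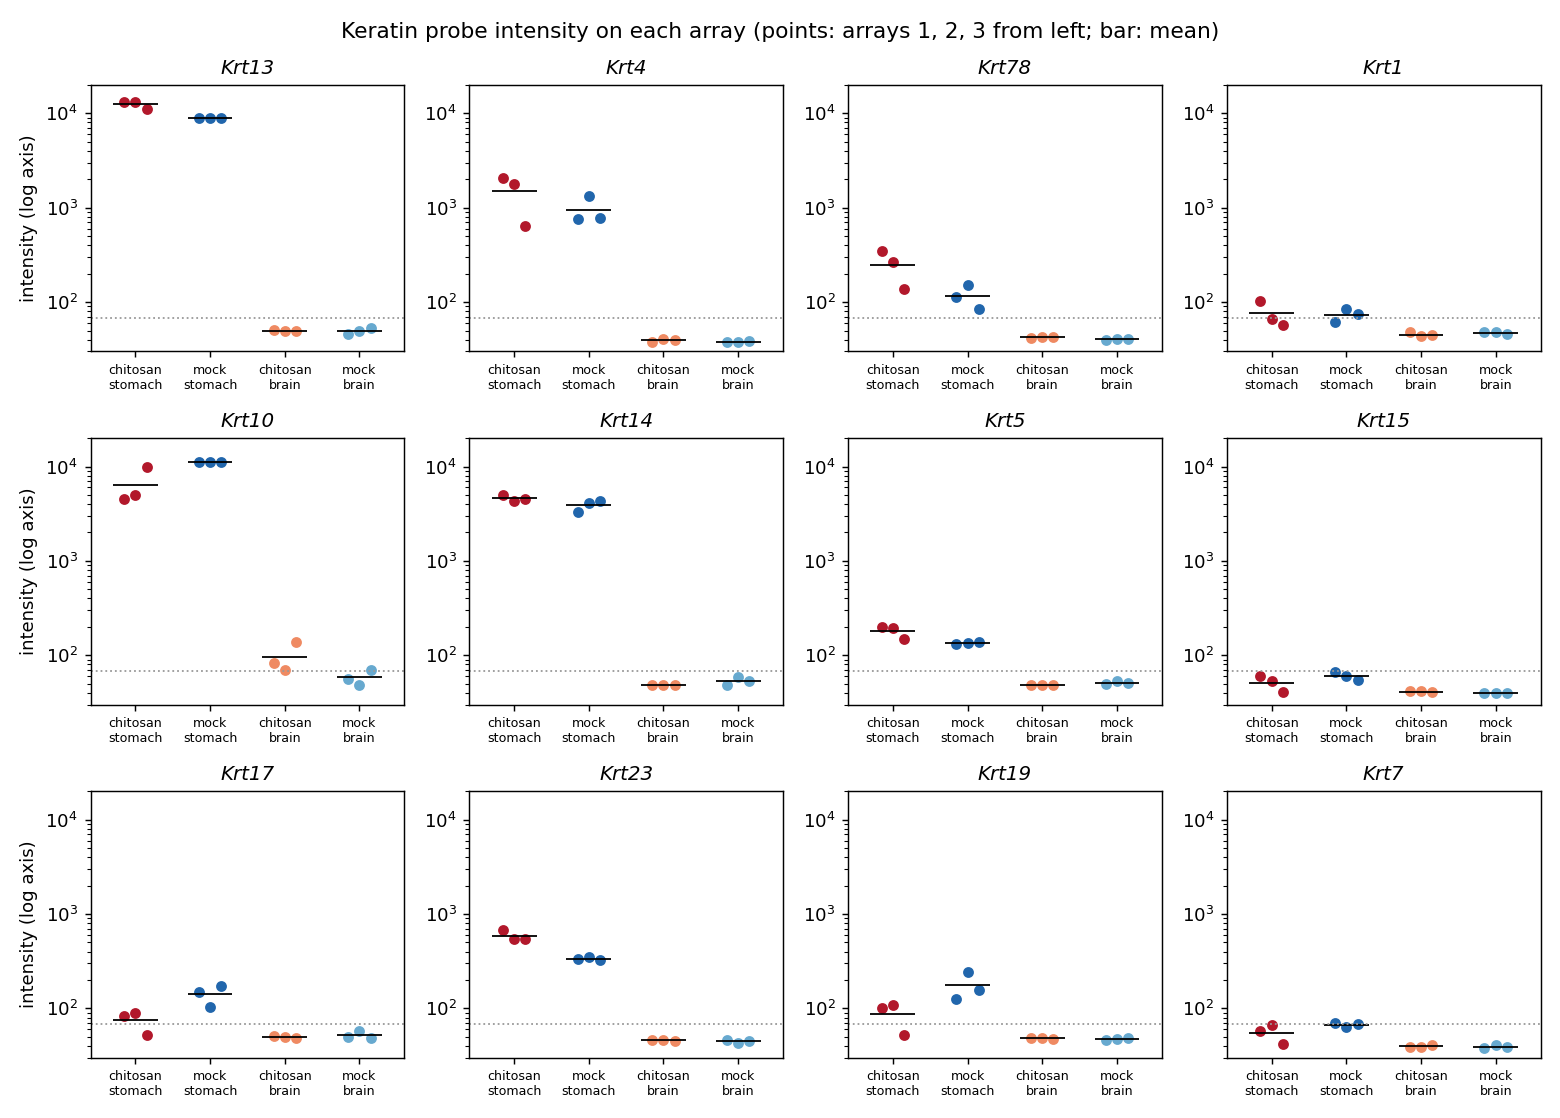
Intensity on a log axis is plotted for 12 stomach keratins on each array (points, arrays 1 to 3 from left) with the group mean (bar) and the background limit of 68.67 (dotted line). All stomach values of Krt13, Krt4, Krt10, Krt14, Krt5, Krt23 and Krt78 lie above the limit, Krt17 and Krt19 fall under it on chitosan stomach array 3, and levels of different probes cannot be set against each other.

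The hair keratins and Krt12 showed no stomach pattern of this kind. Krt82, a type II keratin of the hair cuticle, read 62.8, 70.9 and 86.1 in chitosan stomachs and 72.4, 60.1 and 65.1 in mock stomachs (log2 difference 0.15, SE 0.15). Krt25, of the inner root sheath, was above background through mock stomach array 3 alone, with 46.6, 47.9 and 50.2 in chitosan stomachs and 48.2, 46.3 and 138.1 in mock stomachs (-0.49, SE 0.39, and 0.03 without that array). Krt12 read 57.2, 69.0 and 57.7 in chitosan stomachs and 64.2, 57.2 and 65.8 in mock stomachs, a difference of -0.03 (SE 0.11).

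In the brain no keratin passed either (0 of 46 by limma, 0% of all probes; 0 of 46 by the methods' t-test; 4 of 46 with an unadjusted p under 0.05, against 6.50% of all probes). With all 12 arrays in 1 model 0 keratins passed, against 0.0100% of all probes. Groups did not overlap for 5 keratins higher with chitosan (5.00% of all probes) and 3 lower (6.79%), and none was 2-fold higher (0.207% of all probes) or 2-fold lower (0.160%). Across the 46 genes, 21 were higher and 25 lower, with a median of -0.01.

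Krt10 and Krt24 were the 2 keratins with a brain mean over the limit in the chitosan group. Krt10 was higher in all 3 chitosan brains than in any mock brain (log2 difference 0.69, SE 0.26, adjusted p = 0.765, limma), the closest values being 70.2 and 69.6. Krt24 read 46.6, 46.4 and 671.6 in chitosan brains and 52.4, 66.5 and 53.5 in mock brains, so its log2 difference of 0.99 (SE 0.95, adjusted p = 0.814) rested on chitosan brain array 3, and without it the difference was -0.30 (adjusted p = 0.395). Krt12 read 63.9, 56.3 and 65.1 in chitosan brains and 70.3, 74.8 and 69.6 in mock brains (-0.21, SE 0.10, adjusted p = 0.766), which did not overlap. Krt222, a keratin-like gene, read 48.6, 58.3 and 71.6 in chitosan brains and 45.2, 41.8 and 44.0 in mock brains (0.43, SE 0.13, adjusted p = 0.765), also without overlap.

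Whether the chitosan effect differed between the organs was tested directly over all 12 arrays. No keratin passed (0 of 46 by limma, smallest adjusted p = 0.338, against 0.251% of all probes; 11 of 46 had an unadjusted p under 0.05, against 9.36% of all probes). The effect in stomach minus that in brain was -1.59 (SE 0.51, adjusted p = 0.348) for Krt10, -1.04 (SE 0.38, adjusted p = 0.429) for Krt19, -0.86 (SE 0.30, adjusted p = 0.400) for Krt17, 0.98 (SE 0.42, adjusted p = 0.503) for Krt78, 0.76 (SE 0.30, adjusted p = 0.462) for Krt23 and 0.48 (SE 0.20, adjusted p = 0.487) for Krt5.

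Markers of other cell types also stood apart between the chitosan and the mock stomachs, though none passed the adjusted p in that comparison (0% of all probes, limma). Gastric gland markers (15 genes measured) summed to 4175.1, 3474.0 and 2140.5 in chitosan stomachs and to 13291.7, 19744.2 and 14360.8 in mock stomachs, with 682.5 to 717.2 in brains, and 14 of the 15 were lower (median log2 difference -2.19 over all 15). Among them Pgc, the precursor of the stomach protease gastricsin, read 217.7, 219.4 and 292.9 in chitosan stomachs and 2586.3, 1644.2 and 2669.3 in mock stomachs (log2 difference -3.22, SE 0.43, adjusted p = 0.125, limma). The difference of its chitosan effect between the organs passed (-3.20, adjusted p = 0.017), as it did for 6 of the 15 gland markers, all lower, against 0.251% of all probes. Smooth muscle markers summed to 18741.8, 19507.2 and 15942.2 in chitosan stomachs and to 10824.0, 9509.8 and 10607.5 in mock stomachs, and 9 of the 10 were higher. Of the 7 pancreas acinar markers measured, only Clps (colipase) was above background. It read 2783.2, 4233.0 and 5976.3 in chitosan stomachs and 16672.0, 20075.7 and 20075.7 in mock stomachs (log2 difference -2.19). The part of these shifts in the values of Krt19, Krt20, Krt7 or the squamous keratins was not tested.

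Markers of the forestomach squamous epithelium other than keratins overlapped between the groups in their summed intensity, though not gene by gene. They summed to 31861.4, 28828.0 and 17116.6 in chitosan stomachs and to 16921.3, 27749.0 and 20137.2 in mock stomachs (18 genes measured), and 12 were higher and 6 lower (median 0.26). Of the 14 above background, 10 were higher and 4 lower (median 0.49), and none was called. Chitosan stomach array 3 was again the lowest of its group, as for Krt4 and Krt78. Lgals7, which had the highest mean log2 of this list, read 11241.5, 9823.9 and 5173.6 in chitosan stomachs. It read 7834.1, 13240.4 and 9823.9 in mock stomachs (-0.28, SE 0.30). Dmkn read 5173.6, 3178.0 and 1404.2 in chitosan stomachs and 917.4, 3003.8 and 1208.8 in mock stomachs, which overlap (0.93, SE 0.57). Sprr3, a small proline-rich protein of the cornified envelope, read 3297.2, 3297.2 and 875.9 in chitosan stomachs and 941.1, 2004.4 and 1376.9 in mock stomachs (0.62, SE 0.55). Rptn (repetin), a matrix protein of cornifying cells, read 3557.7, 4754.9 and 3841.8 in chitosan stomachs and 2036.8, 1835.0 and 2783.2 in mock stomachs (0.88, SE 0.18, adjusted p = 0.405), without overlap.

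Genes that work beside keratins in epithelia (junction and adhesion proteins that anchor the filaments, with some epithelial transcription and splicing factors) were also read. Of 15 partners in squamous epithelia, 4 were called higher in the stomach of chitosan mice and 6 in that of mock mice. Of 16 partners listed for simple epithelia 2 were called in chitosan mice and 8 in mock mice. The lists are not exclusive to either kind of epithelium. That for simple epithelia holds general desmosome genes such as Dsp, so its counts do not describe the simple epithelium alone. Over all probes, 0.939% were called higher in the stomach of chitosan mice and 3.54% in that of mock mice. With chitosan the stomach values were 9 higher and 6 lower for the first list and 10 higher and 6 lower for the second, with none called in that comparison. Elf3, an epithelial transcription factor of the second list, passed for the difference of the chitosan effect between the organs (-0.89, SE 0.12, adjusted p = 0.018, limma), and it is named here after its values were seen. It read 52.2, 41.8 and 45.1 in chitosan stomachs and 74.9, 82.2 and 73.1 in mock stomachs, which do not overlap, against 39.6 to 49.8 in brains. Dsp (desmoplakin), which links keratin filaments to desmosomes, read 1551.8, 1676.3 and 2932.6 in chitosan stomachs and 1935.2, 780.8 and 2112.9 in mock stomachs (0.42, SE 0.43), against 53.2 to 117.2 in brains. Dsc1 (desmocollin), a desmosomal cadherin of upper squamous layers, read 365.5, 374.3 and 156.7 in chitosan stomachs and 331.8, 409.3 and 280.2 in mock stomachs (-0.28, SE 0.57), with 37.6 to 39.9 in brains. Klf5, a transcription factor of proliferating epithelia, read 252.4, 346.2 and 198.3 in chitosan stomachs and 153.5, 181.1 and 204.2 in mock stomachs, which overlap (0.54, SE 0.46). Of 16 other intermediate filament genes, 11 were higher and 5 lower with chitosan in the stomach, again with none called, and Vim (vimentin, of mesenchymal cells) read 920.8, 713.2 and 606.8 in chitosan stomachs and 357.2, 622.9 and 471.8 in mock stomachs (0.64, SE 0.48).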

How the data were processed

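Total RNA of 12 organs was labelled with Cy5 and hybridised to Phalanx mouse whole-genome arrays. The deposited values are linear intensity per probe: per the methods, the authors subtracted local background, removed control spots and normalised with limma. The normalisation method and version are not given in the sources used here, and the arrays share nearly the same set of intensities. Probes were named from the platform annotation (21020 probes with a symbol, 8902 without).

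Intensities were taken to log2 and tested with lmFit and eBayes (intensity trend) in limma 3.58.1 (R 4.3.3), with Benjamini-Hochberg adjustment over 29922 probes and a threshold of 0.05. Each contrast used its 6 arrays, and the difference between organs all 12. The script was tested on simulated data. Stomach over brain is a lower bound where brain arrays were under 68.67, which then replaced their values in the bound only. The adjusted p was taken from the fit on the measured values. The number of arrays limits the precision. The labels call the samples of a group separate replicates.

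Members, classes, marker lists and promoter motifs were chosen with earlier results of these data known. Every keratin above background, called or 2-fold apart was named, and of a marker list at most 4 genes, from those with the highest mean log2. Promoter sequences are from RefSeq (GRCm38.p6).

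Replicate numbers were checked by the correlation of deviations from group means over 2563 probes: 0.123, 0.449 and 0.601 for stomach and brain of chitosan mice, at or below -0.0397 in mock mice, -0.41 to 0.578 between treatments in the stomach and at or below -0.000799 in the brain. Only stomach and brain of chitosan mice passed the limit of 0.1 in every pair, and the paired fit there called the same 7 keratins.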

Additional observations from a re-analysis of the deposited data

Results flagged for a closer look

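Krt10 and Krt5 were picked out because every chitosan array lay on one side of every mock array in the stomach and on the other side in the brain. For Krt10 the log2 difference of chitosan minus mock was -0.89 in the stomach and 0.69 in the brain. For Krt5 it was 0.41 in the stomach and -0.074 in the brain, where the probe was under the background limit on all 6 arrays. The test of the difference between organs did not pass for either (limma, adjusted p = 0.348 for Krt10 and 0.487 for Krt5), and the second probe of Krt10 had log2 differences of 1.14 in the stomach and 0.17 in the brain.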

How the results depend on the processing

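Of 790 values of single keratins under the alternatives, 747 kept their direction and their side of the threshold, 27 lost and 5 gained a call, and 11 changed sign. Leaving out 1 array, the calls ranged from 0 to 2 for chitosan in the stomach, from 0 to 11 for stomach over brain in chitosan mice, from 1 to 3 for 2-fold differences in the stomach and from 0 to 1 for those in the brain, and the squamous median from -0.0343 to 0.0653 (0.0646 over probes brighter than the median). With the mean of a gene's probes 1 keratin was 2-fold apart in the stomach. By the ratio of linear means 1 was in the brain, Krt24. Without the intensity trend 1 keratin, Krt23, passed for the difference between organs (adjusted p = 0.0225, limma). With 34 subtracted the simple median was -0.61, and with 1 array left out it ran from -0.231 to -0.0964. The methods' t-test called 5 keratins for stomach over brain in chitosan mice, where Krt4 and Krt78 were lost. It called 8 in mock mice, where Krt78, Krt19, Krt17 and Krt1 were lost. With the replicate number as a replicate block the counts were 0 for chitosan in either organ, 0 for the difference between organs, 7 for stomach over brain in chitosan mice and 11 in mock mice, where Krt1 was lost.

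Signs changed as follows. Krt10 in the stomach was at 0.12 by the mean of its probes. Krt1 in the stomach was at -0.00976 with 34 subtracted and ran from -0.23 to 0.19 with 1 array left out, as Krt12 did from -0.117 to 0.0186, Krt25 from -0.758 to 0.0298 and Krt24 in the brain from -0.30 to 1.63. Krt78 in the brain was at -0.000896 with a floor at the 20th percentile and at -0.0102 by the mean of its probes. The cause was not tested. From 9.52% to 10.6% of the probes of an array were over 2 times its lowest intensity, so differences of dim keratins such as Krt8, Krt18 and Krt20 are limited by signal over background.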
